A study of Homo sapiens with 2 samples.

Results

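The 45 genes described here encode the machinery that copies DNA in S phase: the factors that license origins, the replicative helicase, the polymerases and their clamp, the enzymes that supply deoxynucleotides, and the factors that rebuild chromatin behind the fork. They were taken as every gene of a fixed list of replication and S phase genes whose symbol the platform annotation gave. All 45 were found, among 18417 genes in all, and all 45 were among the 13471 genes compared, which are those whose log2 value reached 6 in at least 1 sample. The cells were K562, a human chronic myeloid leukaemia line, and both cultures carried a hairpin RNA, switched on by doxycycline, that targets BMI1 of Polycomb repressive complex 1. One culture was incubated with doxycycline for 96 h, and the control culture received none. The labels do not say how long the control was incubated or whether the line was 1 clone, and no sample received doxycycline without the hairpin. Each group held 1 sample and 1 array, so the spread between cultures is unknown, no test was made, and the number of arrays limits the precision of every value below.

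Replication is prepared in G1, when the origin recognition complex (ORC), CDC6 and CDT1 load the ring-shaped helicase MCM2 to MCM7 onto DNA. In S phase CDC45 and the GINS complex join the ring and activate it, and the polymerases follow with the sliding clamp PCNA, which replication factor C (RFC) loads. Most of these genes are known targets of E2F transcription factors, which the retinoblastoma proteins hold in check until cyclin E and its kinase act in late G1. BMI1 is known for repressing the CDKN2A locus, whose products restrain this step. In these cultures CDKN2A was dim, with a mean log2 value of 6.695, where the dimmest replication gene had 8.58. It was not higher with doxycycline, as its log2 difference (doxycycline minus control) was -0.046. Markers of other cell types, described below, read up to 7.91, so a value this low need not mean that CDKN2A was transcribed. Its difference may then be background and no measure of the locus. Whether this locus had a part in the differences below was not tested.

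Promoter sequences are shown for 4 genes that carry letters through which E2F is known to act, and whose differences, given below, run from near 0 to the lowest of the list. All 4 were lower with doxycycline. Other genes of the list with these letters, such as POLA2, GINS1, CDC6 and LIG1, were higher and are not shown. The windows run from 250 bases before to 50 bases after the RefSeq start (GRCh38.p14), 5′ to 3′ on the gene's strand. Capitals mark the E2F motif in 4 spellings, TTTCGCGC, TTTGGCGC, TTTCCCGC and TTTGCCGC, and CCAAT, the letters bound by NF-Y, each on either strand. MCM2 lies at chr3:127598161-127598460 on the plus strand, MCM3 at chr6:52284693-52284992 on the minus strand, POLA1 at chrX:24693668-24693967 on the plus strand and GINS2 at chr16:85688905-85689204 on the minus strand.
MCM2: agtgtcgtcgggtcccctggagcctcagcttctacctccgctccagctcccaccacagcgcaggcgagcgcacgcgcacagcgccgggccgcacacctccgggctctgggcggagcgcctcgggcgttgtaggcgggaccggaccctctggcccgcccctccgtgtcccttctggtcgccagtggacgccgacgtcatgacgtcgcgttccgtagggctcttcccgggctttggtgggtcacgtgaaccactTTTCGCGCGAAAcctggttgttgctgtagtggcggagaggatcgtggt
MCM3: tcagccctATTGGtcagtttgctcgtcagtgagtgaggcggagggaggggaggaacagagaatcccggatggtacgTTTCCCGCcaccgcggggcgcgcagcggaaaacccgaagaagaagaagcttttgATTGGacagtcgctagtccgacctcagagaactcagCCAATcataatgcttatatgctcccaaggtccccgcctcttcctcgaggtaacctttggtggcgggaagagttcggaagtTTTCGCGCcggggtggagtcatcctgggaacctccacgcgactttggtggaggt
POLA1: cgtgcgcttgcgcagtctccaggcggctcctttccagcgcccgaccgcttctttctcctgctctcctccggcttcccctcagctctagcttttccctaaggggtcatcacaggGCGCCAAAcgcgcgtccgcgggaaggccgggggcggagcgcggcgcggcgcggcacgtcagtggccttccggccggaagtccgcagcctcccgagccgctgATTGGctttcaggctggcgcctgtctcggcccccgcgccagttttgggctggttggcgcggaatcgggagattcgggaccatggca
GINS2: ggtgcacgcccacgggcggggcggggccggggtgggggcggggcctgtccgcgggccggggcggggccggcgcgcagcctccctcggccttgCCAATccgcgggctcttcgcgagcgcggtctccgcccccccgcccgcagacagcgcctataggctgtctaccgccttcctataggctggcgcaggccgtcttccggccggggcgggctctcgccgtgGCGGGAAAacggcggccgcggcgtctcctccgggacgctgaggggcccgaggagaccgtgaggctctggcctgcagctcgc
In the MCM2 window 2 E2F matches of opposite strand overlap and form 1 palindrome, and there is no CCAAT. The MCM3 window held 2 E2F matches and 3 CCAAT matches, and the POLA1 and GINS2 windows 1 of each.

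BMI1, the target of the hairpin, shares its probe set with its COMMD3 read-through. That probe set read 10.84 in the control and 10.0 after doxycycline, a log2 difference of -0.84. Of a short list of genes typical of K562, among them GATA1, KLF1 and the embryonic globin gene HBE1, 9 had a probe set of their own. They stood between 7.30 and 13.03 with doxycycline and between 7.39 and 13.34 without. All 9 were lower with doxycycline, by a median of -0.18, where 48.8% of all genes compared were lower. Not every erythroid gene was lower, as ALAS2, outside this list, was higher by 0.22. Of the fibroblast markers 5 of 7 reached a value of 6, of the T cell markers 2 of 6 and of the B cell markers 3 of 4, and none exceeded 7.91. Whether the shift of the 9 listed K562 genes had a part in the differences below was not tested.

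The replication genes were nearly as abundant with doxycycline as without it, with a small tilt toward lower values. The 45 genes ranged from 8.53 to 11.58 with doxycycline and from 8.51 to 11.62 without. Of these 32 were lower and 13 higher with doxycycline, so 71.1% were lower, against 48.8% of all genes compared. The median log2 difference (doxycycline minus control) was -0.05, a 1.04-fold lower level, against 0.0018 over all genes compared. In RNA of whole cultures, fewer cells in S phase and less of these transcripts per cell cannot be told apart. A gene was counted as apart at 1.1-fold, a log2 difference of 0.14 in either direction. By that size 7 of 45 genes were lower (GINS2, MCM2, UHRF1, POLD2, POLA1, TK1 and ORC5) and 2 were higher (LIG1 and CCNE2). Among all genes compared 17.1% were at least that much lower and 19.4% at least that much higher, so the share of replication genes lower by this size, 15.6%, was close to the background, and the share that was higher, 4.44%, was below it. After quantile normalization of the 2 columns 5 genes were lower and 3 higher by this size. At 1.2-fold 0 of 45 were apart, where the background was 4.05% lower and 6.04% higher, and at 1.5-fold also 0 of 45, where the background was 0.475% in either direction.

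Because dim genes scatter more on this array, the same shares were also taken over the 4889 genes whose mean level lay between those of the dimmest and the brightest replication gene, a comparison chosen after the values were seen. Of these 49.3% were lower than 0, 14.0% were at least 1.1-fold lower and 15.8% at least 1.1-fold higher. At 1.2-fold 2.11% were lower and 3.50% higher. Their robust SD, the scaled median absolute deviation, was 0.13 on the log2 scale, and that of the replication genes was 0.08. Within 0.13 of 0 lay 35 of the 45 replication genes (77.8%), against 67.9% of the genes of similar level.

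**Figure D1:**
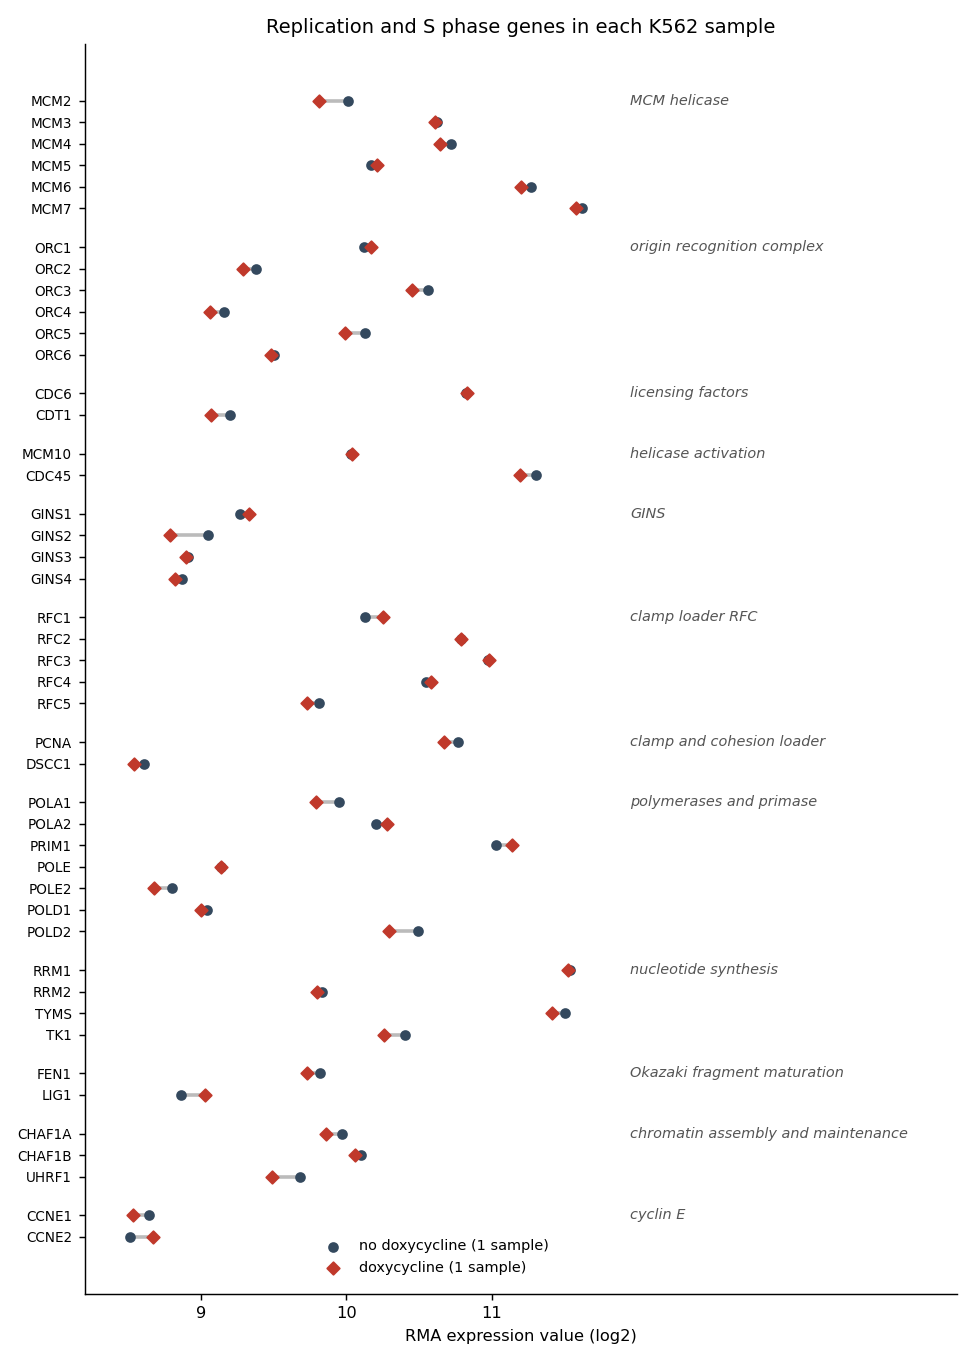
Log2 RMA value (x axis) of each of the 45 replication and S phase genes (y axis, grouped by function) in the sample without doxycycline (circles) and with it (diamonds), 1 sample each and no error bars. The symbols of most genes nearly touch, and the longest gap is that of GINS2, from 9.05 to 8.79.

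The replicative helicase was lower in 5 of its 6 subunits, although MCM3 turned higher with centring or quantile normalization and MCM7 came to 0 with the latter. MCM2 stood at 9.81 with doxycycline and 10.01 without, 1.15-fold lower. Among the 4889 genes of similar level 250 (5.11%) had a difference as low as that of MCM2. MCM5 was the subunit that was higher, at 10.21 against 10.17. MCM4, MCM6 and MCM7 differed by -0.08, -0.07 and -0.04, and MCM3 by -0.0059. The median of the 6 was -0.05, and -0.03 after quantile normalization.

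The origin recognition complex, which marks the sites where the helicase is loaded, was also lower in 5 of 6 subunits, with a median of -0.09. ORC5 differed by -0.14, from 10.13 in the control to 9.99. ORC2, ORC3 and ORC4 lay between -0.11 and -0.09. ORC6 differed by -0.01. ORC1, the subunit known to be made and destroyed with each cell cycle, was higher at 10.17 against 10.12. Of the loading factors, CDT1 differed by -0.13, from 9.20 in the control to 9.07, just inside the 1.1-fold size. Its partner CDC6 was at 10.83 and 10.82. GMNN, the gene for geminin, the inhibitor of CDT1, was not among the 45 and had the lowest difference of the further replication genes described below.

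The factors that turn the loaded helicase on included the gene with the lowest difference of the 45. GINS2 was at 9.05 in the control and at 8.79 with doxycycline, a log2 difference of -0.26, just short of 1.2-fold. Among genes of similar level 106 (2.17%) were as low. The other GINS subunits stood closer to 0. GINS1 was at 9.33 against 9.27, GINS3 differed by -0.0046 and GINS4 by -0.05, so that the median of the 4 was -0.03, and -0.02 after centring. CDC45, which completes the active helicase with GINS, was at 11.19 with doxycycline and 11.30 without. MCM10, which is needed for the same step, was at 10.04 and 10.03, and its direction turned when a trend with genomic span was removed.

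In the clamp loader 4 of 5 subunits were higher with doxycycline, of which RFC2 and RFC3 turned lower when a trend with genomic span was removed. RFC1, the large subunit, was at 10.25 against 10.13 in the control, which is 0.12 higher. RFC4 differed by 0.03, and RFC2 and RFC3 by 0.0043 and 0.0033. RFC5 was lower, at 9.73 against 9.81. The median of the 5 was 0.0043, and it was -0.0059 after removal of the span trend. PCNA, the clamp itself, was at 10.67 with doxycycline and 10.77 without. DSCC1, part of an alternative loader that links replication to sister chromatid cohesion, was at 8.54 and 8.61.

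The polymerases went both ways, also within a single enzyme. POLA1, the catalytic subunit of polymerase alpha, was at 9.79 with doxycycline and 9.95 without, 1.12-fold lower. POLA2, its accessory subunit, was at 10.28 against 10.20, and PRIM1, the primase that makes the RNA primer in the same complex, at 11.14 against 11.03. Thus POLA1 differed by -0.16 and its partners by 0.08 and 0.11. POLD2, a small subunit of the lagging-strand polymerase delta, was 1.14-fold lower at 10.29 against 10.49, while POLD1, its catalytic subunit, differed by -0.04. In polymerase epsilon, which copies the leading strand, the accessory subunit POLE2 differed by -0.11 and the catalytic subunit POLE by -0.0043, which turned positive on centring. The median of the 7 genes was -0.04, with 5 lower, POLE among them.

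All 4 genes of nucleotide supply were lower, by little, except that RRM1 turned higher under quantile normalization. TK1, the thymidine salvage kinase, was at 10.26 with doxycycline and 10.40 without, or -0.14. TYMS, which makes thymidylate, was at 11.41 against 11.50. The ribonucleotide reductase genes RRM1 and RRM2 stood closer to 0, with differences of -0.02 and -0.03, and RRM1 was at 11.52 with doxycycline and 11.54 in the control. The median of the 4 was -0.06.

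Behind the fork, the enzymes that finish Okazaki fragments differed in opposite directions. FEN1, the flap nuclease, was at 9.73 with doxycycline and 9.82 without. LIG1, the ligase that seals the nick, had the highest difference of all 45 genes, at 9.03 against 8.86, or 1.12-fold higher. Among genes of similar level 11.7% were as high. The chromatin factors were lower in 3 of 3, with a median of -0.11. UHRF1, which brings the maintenance methyltransferase to newly copied DNA, was at 9.49 against 9.68. It was the only one of the 45 genes with a further probe set, a dim one at 6.60 with doxycycline and 6.93 without, which differed by -0.33 in the same direction. CHAF1A and CHAF1B, subunits of the chaperone that deposits histones on new DNA, differed by -0.11 and -0.04, the latter from 10.10 in the control to 10.06.

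The E cyclins, which drive entry into S phase, also parted. CCNE1 was at 8.53 with doxycycline and 8.64 without, and CCNE2 at 8.67 against 8.51. Their differences were -0.11 and 0.16, so the pair had no shared direction.

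**Figure D2:**
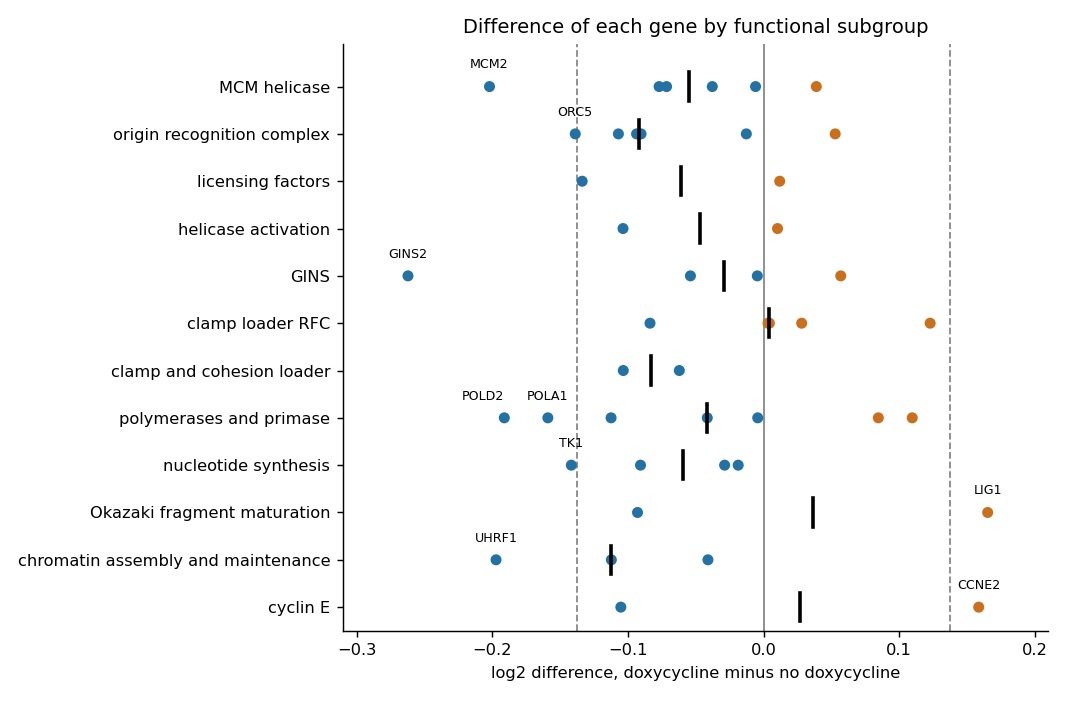
Log2 difference, doxycycline minus no doxycycline (x axis), of each gene by functional subgroup (y axis). Points are genes, blue below 0 and orange above, black bars are subgroup medians and dashed lines mark 1.1-fold; no error can be drawn with 1 sample per group. The 9 genes past the dashed lines are named, and the highest subgroup medians are those of Okazaki fragment maturation, cyclin E and RFC. Okazaki fragment maturation and cyclin E hold 2 genes each, 1 lower and 1 higher, so their medians are midpoints of opposed values.

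**Figure D3:**
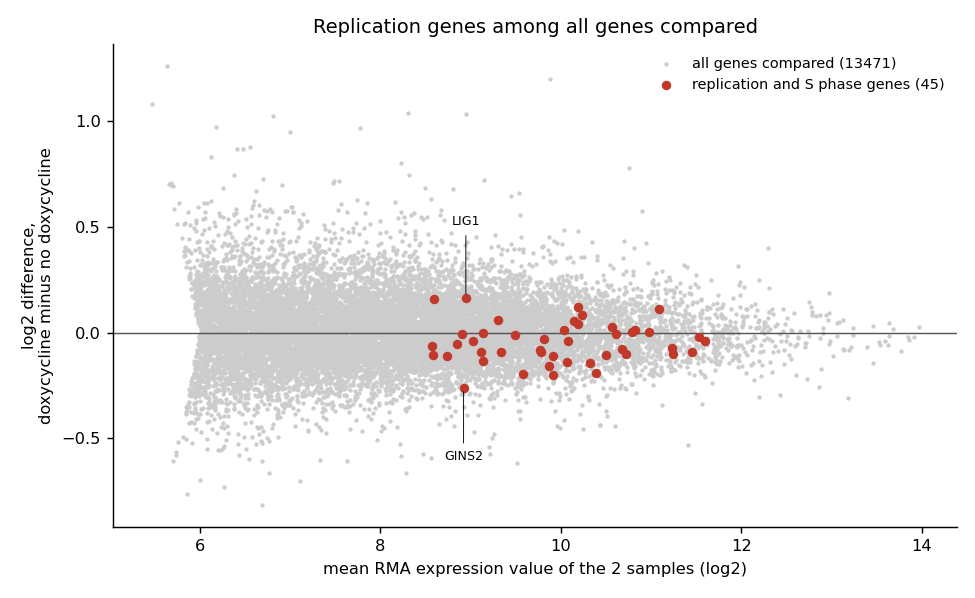
Log2 difference (y axis) against the mean log2 value of both samples (x axis) for the 13471 genes compared (grey) and the 45 replication genes (red). The red points lie within the grey cloud, between GINS2 at -0.26 and LIG1 at 0.17.

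The promoter windows were then set beside these differences. A gene could have several windows, and a match in any was counted. A window was found for 40 of the 45 genes; MCM4, MCM5, GINS4, DSCC1 and CCNE2 had none in the table used. The E2F motif spelled TTTCGCGC or TTTGGCGC was in the window of 11 of the 40 genes (27.5%), against 2.18% of 10603 compared genes and 1.40% of all 27305 genes with a window. These 11 were MCM2, MCM3, MCM6, MCM7, CDC6, GINS1, POLA1, POLA2, POLE, POLE2 and UHRF1. Their median log2 difference was -0.04, with 8 of 11 lower, and that of the 29 genes without the motif was -0.08, with 21 of 29 lower. Over the 231 compared genes with these letters the median was -0.01 and 53.2% were lower. TTTCCCGC and TTTGCCGC were also counted, in a search added after the values were seen. The motif was in 19 of the 40 (47.5%), against 6.19% of compared genes and 3.99% of all genes with a window. Both GINS2, with the lowest difference of the 45 genes, and LIG1, with the highest, were among the 19. The medians were then -0.07 with the motif, with 14 of 19 lower, and -0.04 without it, with 15 of 21 lower. Which group had the lower median thus turned with the spellings searched. MCM2 and MCM3, whose windows are printed above, both hold TTTCGCGC and differed by -0.20 and -0.0059. CCAAT was in 24 of the 40 windows (60.0%), against 41.7% of compared genes and 39.7% of all genes with a window, and the medians with and without it were -0.05 and -0.07. The E-box CACGTG was in 5 of the 40 (MCM2, MCM7, ORC4, FEN1 and CHAF1A), or 12.5%, against 12.3% of compared genes and 8.77% of all genes with a window. These 5 were lower, with a median of -0.09, and of the other 35 genes 24 were lower, with a median of -0.04. Over the 1309 compared genes with the E-box 53.3% were lower, with a median of -0.01. A match describes the letters of the window, not a bound site.

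Other genes of the same process, from a list of 53 that does not overlap the 45, were also more often lower than higher. Of the 52 measured, 32 were lower (61.5%) with a median of -0.04, or -0.06 after removal of the span trend. Over all genes compared 48.8% were lower. At least 1.1-fold lower were 10 of the 52 (19.2%), close to the 17.1% of all genes compared. At least 1.1-fold higher were 4 (7.69%), below the 19.4% of all genes compared. Among the 4889 genes within the level range of the 45, 14.0% were lower and 15.8% higher by that size. Some of the 52 lay outside that range of level. GMNN was at 10.54 with doxycycline and 10.76 without. DTYMK, the next kinase of thymidylate supply, was at 7.55 against 7.76. RPA2, a subunit of the protein that coats single-stranded DNA, was at 9.73 against 9.92, and CDC25A, the phosphatase that activates the S phase kinase, at 9.19 against 9.37. Those furthest in the other direction were RRM2B, a subunit of ribonucleotide reductase, at 8.84 against 8.59, and ATAD5, which unloads PCNA, at 9.48 against 9.23. They were followed by POLD4, the smallest subunit of polymerase delta, at 8.71 against 8.54, and the DNA repair ligase gene LIG3 at 9.46 against 9.29.

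Genes of the next cell cycle phase were split about evenly. Of 29 G2/M and mitosis genes 14 were lower (48.3%), against 48.8% of all genes compared, with a median of 0.0026. At least 1.1-fold lower was 1 (3.45%) and at least 1.1-fold higher were 2 (6.9%), against 17.1% and 19.4% of all genes compared. The genes apart by that size were CKS2 at -0.20, and ECT2 at 0.17 and CDC25C at 0.25. MKI67, the common proliferation marker, was at 9.97 with doxycycline and 10.06 without. In the retinoblastoma and E2F family, the regulators of these genes, 5 of 13 were lower (38.5%), against 48.8% of all genes compared. Their median difference was 0.07, while the mean was 0.02. The median was 0.04 with a floor of 7 and 0.03 after removal of the span trend. TFDP1, a DNA-binding partner of most E2F proteins, was at 10.36 against 10.58. TFDP2, another such partner, went the other way, at 10.72 against 10.63. RBL2, the retinoblastoma relative p130, was at 8.92 against 8.70. E2F1, a classical activator of replication genes, was at 8.24 against 8.32. The genes named in these lists were chosen after their values were seen, and with 1 sample per group the differences between lists were not tested.

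**Figure D4:**
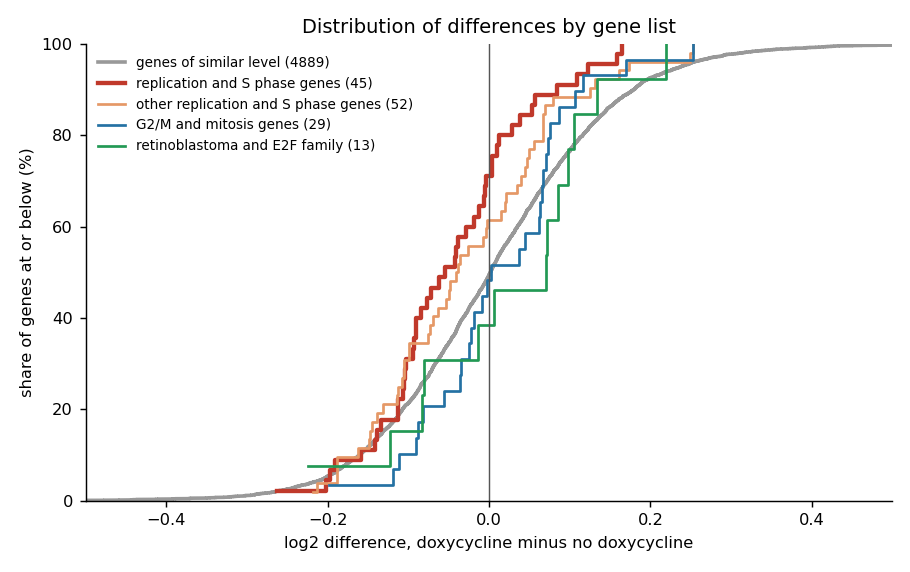
Share of genes (y axis, %) at or below each log2 difference, doxycycline minus no doxycycline (x axis), for the 45 replication genes, 52 other replication genes, 29 G2/M and mitosis genes, 13 genes of the retinoblastoma and E2F family and 4889 genes of similar level. At 0 the curve of the replication genes has reached 71.1%, that of the other replication genes 61.5% and that of the G2/M genes 48.3%.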

How the data were processed

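RNA of 2 K562 cultures was hybridised to 1 Affymetrix array each. Per the submitters' processing notes the authors ran RMA in Affymetrix Expression Console 1.1.1, and the deposited values are on a log2 scale. RMA equalises the distributions of arrays processed together, so it would hide a shift shared by all genes. The base of the log was taken from RMA and the range of the values, 1.61 to 14.6. The series' design text names an HG-U133 array, whereas the platform annotation is that of a whole-transcript array, which was used here.

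Of 33297 probe sets 19460 had 1 gene symbol, updated through Entrez IDs to RefSeq (GRCh38.p14). Of several probe sets the one with the highest mean was used, and genes under 6 in both samples were left out. Differences are doxycycline minus control. With 1 sample per group no p-value was computed. All 45 genes are accounted for. Both values are given for those at least 1.1-fold apart, for the highest and lowest of each of 12 subgroups and for the 4 furthest other replication genes in each direction, and for some others chosen after their values were seen. The genes and lists were chosen with earlier results of these data known. Alternatives tried were quantile normalization, centring, removal of a loess trend (span 0.3) or of a trend with genomic span, floors of 5, 7 and 8 or none, the mean or median of probe sets, and sizes of 1.2-fold and 1.5-fold. The summaries were tested on simulated data with added shifts. The tolerance of that test was wider than every subgroup median reported here, so it does not show precision at this size. Software was pandas 2.3.3 and numpy 2.4.6 under Python 3.11.15, with statsmodels 0.14.6 for the loess and matplotlib 3.10.9 for figures.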

Additional observations from a re-analysis of the deposited data

How the results depend on the processing

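Over 10 alternatives of probe set choice, scaling, floor and genomic span, the median log2 difference of the 45 replication genes lay between -0.06 and -0.04, and between 29 and 35 of them were lower with doxycycline. Past 1.1-fold were 5 to 8 lower and 2 to 3 higher. With a size of 1.2-fold or 1.5-fold in place of 1.1-fold the counts were 0 in all, 0 lower and 0 higher. In these alternatives 37 of 45 genes kept their direction, and the other 8, all within 0.04 of 0, changed sign or came to 0. The G2/M median lay between -0.0018 and 0.02, the RFC median between -0.0059 and 0.02, the MCM median between -0.06 and -0.03, the cyclin E median between 0.02 and 0.04 and the retinoblastoma and E2F median between 0.03 and 0.08. No scaling moved the median of all genes beyond the range from -0.0080 to 0.01. No paired analysis was possible because each group held 1 sample, and no sample could be left out for the same reason. Differences of this size could be smaller than those between replicate cultures, which were not measured.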
